A study of Mus musculus with 18 samples.

Results

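The knockout arrays at 8 months of age were compared with the knockout arrays at 5 months, to describe how gene expression moved in mice without Ppt1 as they aged. The comparison used 6 of the 18 arrays of the series, 3 at each age, chosen by the genotype and age in the sample descriptions. Both groups were Ppt1 knockouts; the 5-month group had 1 male and 2 females, and the 8-month group had 2 males and 1 female. Wild-type arrays at 5 and 8 months, 3 each with 1 male and 2 females, gave the change over the same interval in mice with Ppt1. The labels give the source of the RNA as both brain and cochlea, and do not give the dissected region, the strain or the design of the knockout allele. Each group holds arrays of both sexes, so its arrays came from at least 2 animals or pools. The labels do not say whether the arrays of 1 sex in a group came from separate animals; where they did not, the spread between them is technical.

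Palmitoyl-protein thioesterase 1, the product of Ppt1, sits in the lysosome and cleaves palmitate from cysteines of proteins that are being broken down. Without it, undegraded lipid-modified protein builds up as autofluorescent storage material, and in children its loss causes an early form of neuronal ceroid lipofuscinosis. In brains with this disease, activation of astrocytes and microglia and loss of neurons are known features, and the mouse knockouts develop seizures and die young.

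The genotype labels were checked on Ppt1 itself. Its brightest probe set read 12.8, 0.879 and 18.5 on the 5-month knockout arrays and 20.6, 14.7 and 23.4 on the 8-month knockout arrays. The wild-type arrays of these ages lay between 543 and 629. On this probe set all 6 knockout arrays therefore lay far below every wild-type array, and the 2 ages overlapped. A dimmer probe set read 79.8, 76.4 and 71.1 on the 5-month knockout arrays and 44.3, 38.6 and 64.8 on the 8-month ones. There the wild type lay between 44.7 and 74.8, so the genotypes overlapped, and the 8-month knockout arrays were below the 5-month ones. On the other tested probe sets all knockout arrays of these ages lay below the wild-type ones. The defining markers of astrocytes, microglia, neurons and oligodendrocytes were well above background on the knockout arrays. Of the 5 cochlear markers, Otof, Coch and Myo7a were above background on all 6 knockout arrays, and Slc26a5 and Tecta on 1 each. Among T-cell and B-cell markers, Cd8a was above background on 4 of 6 arrays, Cd79a on 3, Cd3e on 2 and Cd3d on 0. Array medians lay between 43.17 and 46.09 over all 18 arrays.

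The 3 arrays of the 8-month knockout did not lie together. On the 1st principal component (24.2% of the variance) the scores were 50.7, 45.6 and 9.86 for replicates 1, 2 and 3. The 5-month knockout arrays lay at 17.6, 12.3 and 11.1, so replicate 3 was lower than each of them. The 2nd component, with 9.66% of the variance, also set replicate 3 (21.0) among the 5-month arrays (22.2, 17.2 and 13.6) and away from replicates 1 and 2 (-29.5 and -9.06). Replicate 3 correlated at 0.9787 on average with the 5-month arrays and at 0.9614 with its own group. Its spike-in control probe sets, which report added control targets and not mouse RNA, lay 0.43 above their medians on the log2 scale. On the other 17 arrays they lay between -0.20 and 0.20. Its ratios of 5' to 3' signal, a sign of RNA quality, were 0.432 for actin and 1.22 for Gapdh. For actin the ratios were 0.482 and 0.448 on replicates 1 and 2 and 0.389 to 0.473 at 5 months. For Gapdh they were 1.25 and 1.22, and 1.16 to 1.28 at 5 months. The part of the spike-in level in the position of replicate 3 was not tested. Replicate 3 was singled out after its values were seen, so changes are given with it and without it. Members of the gene lists are counted without it, since with all arrays 0 members of any list passed, and p-values without it describe the 2 remaining arrays at 8 months.

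**Figure D1:**
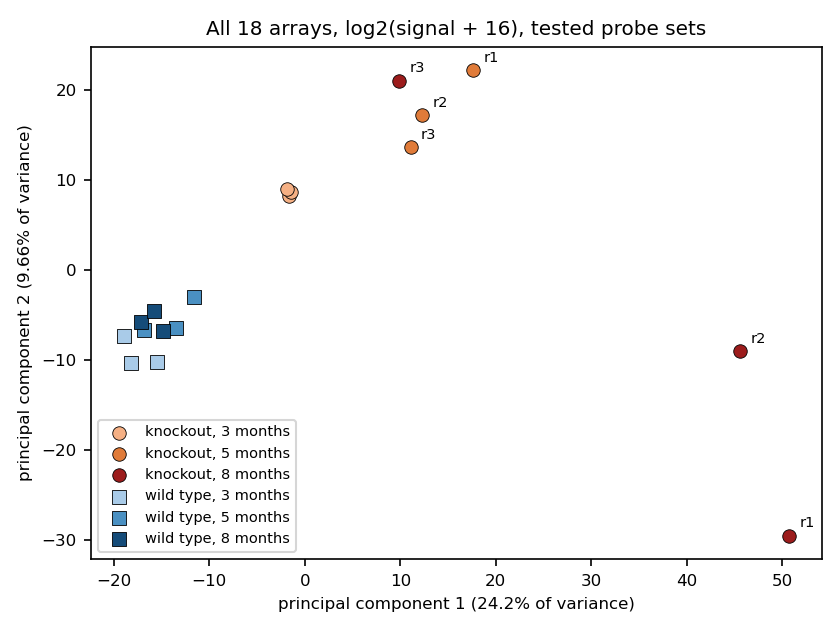
Position of all 18 arrays on the 1st and 2nd principal components of log2(signal + 16); circles are knockouts, squares are wild types, and r1 to r3 mark the knockout replicates at 5 and 8 months. The 8-month knockout replicates 1 and 2 lie far to the right, and replicate 3 lies beside the 5-month knockout arrays.

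With all arrays, 1 probe set out of 27022 had an adjusted p under 0.05 (limma, Benjamini-Hochberg over all probe sets tested), which is 0.00370%. It was lower at 8 months and measured Nlk. At an unadjusted p under 0.05 there were 1750 higher and 2034 lower probe sets. All 3 arrays at 8 months lay above all 3 arrays at 5 months for 1698 probe sets (6.28%), and below them for 1872 (6.93%). In the wild type the same counts were 2082 (7.70%) and 2125 (7.86%), so the arrays of the 2 ages separated for no more probe sets in the knockout than in the wild type. Over genes, each taken from its brightest probe set, 5.87% of 12496 had all 8-month knockout arrays above the 5-month ones and 7.87% had all of them below.

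Without replicate 3, 1125 probe sets rose (4.16%) and 1435 fell (5.31%), of which 155 rose and 111 fell by at least 2-fold. Counted as genes, 585 of 12496 rose (4.68%) and 778 fell (6.23%). Leaving out replicate 1 instead gave 2 calls, and leaving out replicate 2 gave 1. A fit that kept all arrays and weighted each by how well it followed the model gave replicate 3 the lowest weight of all 18 arrays, 0.311. The next lowest weight in that fit, 0.653, was that of 8-month knockout replicate 1. That fit called 421 higher (1.56%) and 502 lower (1.86%) probe sets. Of its 923 calls, 921 (99.8%) were among the 2560 made without replicate 3, of which they were 36%, and all 921 had the same direction. The weights were estimated from these same values and set replicate 3 low, so this overlap is not separate evidence for leaving it out. Replicate 3 itself carried little of the changes called without it. Among the 1125 probe sets that rose without it, it lay above all 5-month arrays for 296 (26.3%), against 27% of all probe sets tested, and below all of them for 279. Among the 1435 that fell, it lay below all 5-month arrays for 429 (29.9%, against 25.6%) and above them for 335. The median difference from the 5-month mean was 0.63, 0.57 and 0.0032 on replicates 1, 2 and 3 for the probe sets that rose, and -0.56, -0.47 and -0.011 for those that fell.

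**Figure D2:**
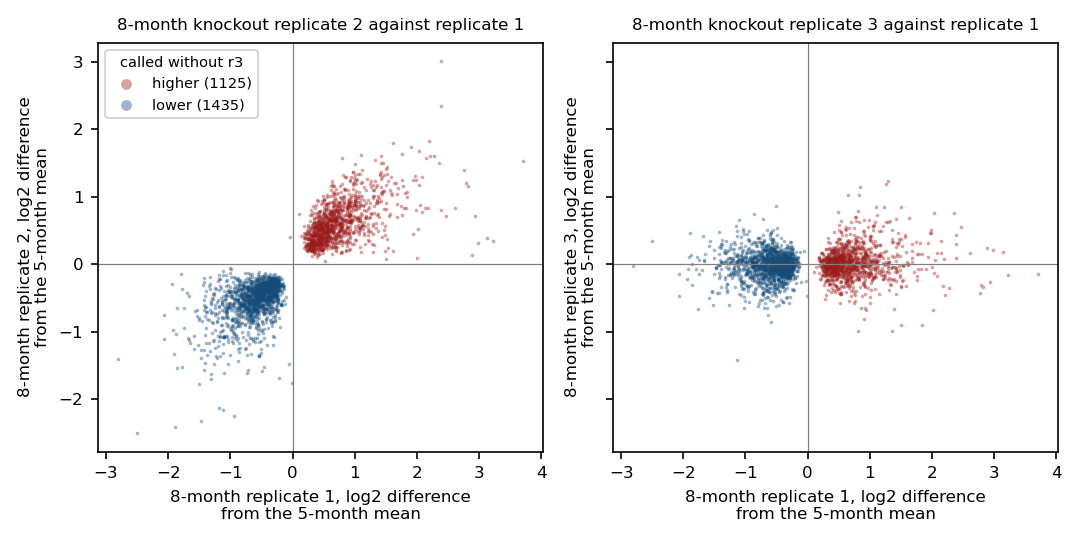
Log2 difference of each 8-month knockout array from the mean of the 5-month knockout arrays, for the 1125 higher (red) and 1435 lower (blue) probe sets called without replicate 3; replicate 2 (left) and replicate 3 (right) are plotted against replicate 1. Replicate 2 follows replicate 1, since both chose these probe sets, while the points of replicate 3 centre on 0.

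Nlk was the 1 gene that passed with all arrays. Nlk, which encodes Nemo-like kinase, read 543, 527 and 584 on the 5-month arrays and 413, 354 and 369 on the 8-month arrays. All 8-month arrays lay below all 5-month arrays. The log2 change of Nlk was -0.53 ± 0.081 with all arrays (adjusted p = 0.0461) and -0.51 without replicate 3, and -0.037 in the wild type. A brighter probe set of Nlk read 1044, 1071 and 1026 at 5 months and 765, 810.4 and 1053 at 8 months, where replicate 3 lay within the 5-month range (-0.26 with all arrays, adjusted p = 0.208). A dimmer probe set of Nlk changed by -0.12 with all arrays (adjusted p = 0.683) and -0.24 without replicate 3 (adjusted p = 0.152). In the wild type the brighter probe set changed by -0.19 and the dimmer one by -0.33. Whether fewer cells of a type or less RNA per cell lie behind a lower signal cannot be told apart in such bulk samples.

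The genes named next had the smallest unadjusted p with all arrays among those whose ages did not overlap, and apart from Nlk none of them passed the adjusted threshold with all arrays. Hspb1, a small heat shock protein, had signals of 178, 202 and 201 on the 5-month arrays and 1055, 574 and 338 on the 8-month arrays. Its change was 1.57 ± 0.28 with all arrays (adjusted p = 0.0508) and 1.93 without replicate 3, and replicate 3 was the lowest of the 8-month arrays. Sat1, which acetylates spermidine and spermine in polyamine breakdown, read 688, 719 and 749 on the 5-month arrays and 1171, 1343 and 823 on the 8-month arrays. Ttr, the thyroid hormone carrier transthyretin made by the choroid plexus, read 7333, 7449 and 8233 on the 5-month arrays and 9569, 10150 and 9627 on the 8-month arrays. For Ttr the 3 arrays at 8 months lay close together, and the change was 0.36 ± 0.066 with all arrays (adjusted p = 0.0508) and 0.37 without replicate 3. On the brightest of the 4 probe sets of Ttr the ages overlapped, and the change was 0.19 with all arrays (adjusted p = 0.305). Lamp2, a glycoprotein of the lysosomal membrane, read 256, 334 and 289 on the 5-month arrays and 398, 422 and 414 on the 8-month arrays on 1 of its 4 tested probe sets. On the other 3 probe sets of Lamp2 the changes with all arrays lay between 0.15 and 0.31, with adjusted p of at least 0.316. St8sia6, a sialyltransferase, read 53.9, 53.02 and 55.0 on the 5-month arrays and 103, 108 and 97.3 on the 8-month arrays, with a change of 0.74 ± 0.16 with all arrays (adjusted p = 0.0764) and 0.78 without replicate 3. On 2 other probe sets of St8sia6 the changes with all arrays were 0.37 and 0.039 and did not pass. C1qb, Jun, Derl1, Slc2a4 and Mrpl57 completed the 10 highest-ranked genes on the higher side, with changes of 0.65, 0.64, 0.42, 1.47 and 0.54 and an adjusted p of 0.0707 each with all arrays. Slc2a4 was not above background on 2 of the 3 arrays at 5 months, and a dimmer probe set of Mrpl57 changed by -0.11.

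On the lower side, Gdf10, a growth factor of the transforming growth factor family, read 247, 259 and 279 on the 5-month arrays and 121, 164 and 183 on the 8-month arrays. Hspa4, a chaperone of the Hsp110 group, read 976, 1191 and 1001 on the 5-month arrays and 692, 547 and 574 on the 8-month arrays, and here replicate 3 lay between replicates 1 and 2. The changes with all arrays were -0.71 ± 0.12 for Gdf10 and -0.77 ± 0.13 for Hspa4, with an adjusted p of 0.0508 for both. The 2 dimmer probe sets of Hspa4 did not pass with all arrays: 1 changed by 0.22, the opposite way, and the other by -0.55, with replicate 3 above the 5-month arrays. Car11, a protein related to carbonic anhydrases, read 622, 579 and 591 on the 5-month arrays and 462, 406 and 462 on the 8-month arrays. Atg4d, a protease of the autophagy machinery, read 118, 169 and 123 on the 5-month arrays and 52.9, 87.3 and 40.6 on the 8-month arrays, and replicate 3 was the lowest array. Their changes with all arrays were -0.43 ± 0.076 and -0.98 ± 0.17. Vps37b (an endosomal sorting subunit), Stk17b (a kinase), Mfge8 (a bridge between phagocytes and dying cells), Nrarp (a Notch regulator) and Rce1 (a protease of prenylated proteins) had changes between -0.98 and -0.48.

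Astrocyte genes were higher on replicates 1 and 2 and level on replicate 3. Without replicate 3, 17 of 28 rose and 0 fell (against 4.68% and 6.23% of all genes); the median log2 change of the list was 0.53, and 0.34 with all arrays, when 0 of 28 passed. The median over all genes tested was -0.016 and -0.015 in these fits. The median differences from the 5-month mean were 0.50, 0.51 and -0.0019 on replicates 1, 2 and 3. Gfap, the intermediate filament of reactive astrocytes, read 4333, 4007 and 3692 on the 5-month arrays and 6313, 6303 and 4122 on the 8-month arrays. The change of Gfap was 0.66 ± 0.074 without replicate 3 (adjusted p = 7.45e-06) and 0.47 ± 0.11 with all arrays (adjusted p = 0.0928). Replicate 3 lay within the 5-month range, while both ages were above the wild type, whose means were 697 and 717 at 5 and 8 months. Vim, a second intermediate filament of these cells, read 1941, 1886 and 1531 on the 5-month arrays and 3504, 3847 and 1723 on the 8-month arrays, and changed by 1.05 ± 0.11 without replicate 3 (adjusted p = 4.63e-06) and 0.72 ± 0.19 with all arrays (adjusted p = 0.103). Serpina3n, a protease inhibitor of reactive astrocytes, read 1041, 1030 and 719 on the 5-month arrays and 2788, 2270 and 1039 on the 8-month arrays, and changed by 1.42 ± 0.17 without replicate 3 (adjusted p = 1.1e-05) and 1.01 ± 0.24 with all arrays (adjusted p = 0.0934). Replicate 3 lay within the 5-month range for Vim and Serpina3n. Hspb1 is on the list as well, and Id3 and Gja1 were the other members with all 8-month arrays above, at 0.66 and 0.30 with all arrays. Lcn2, a secreted lipocalin, read 191, 138 and 112 on the 5-month arrays and 659, 374 and 125 on the 8-month arrays and changed by 1.60 ± 0.38 without replicate 3 (adjusted p = 0.00991) and 0.95 ± 0.46 with all arrays (adjusted p = 0.362).

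Microglial genes split in the same way. Of the activated microglia list, 15 of 25 rose and 0 fell without replicate 3 (against 4.68% and 6.23% of all genes), with a median of 0.59 (0.39 with all arrays, 0.18 in the wild type). Replicates 1, 2 and 3 had median differences of 0.48, 0.61 and -0.076, and replicate 3 lay below all 5-month arrays for 10 of the 25 genes. Gpnmb, a glycoprotein of lipid-laden phagocytes, read 239.9, 336 and 258 on the 5-month arrays and 1506, 1459 and 294 on the 8-month arrays, a change of 2.40 ± 0.22 without replicate 3 (adjusted p = 5.94e-07) and 1.73 ± 0.37 with all arrays (adjusted p = 0.0772). Lyz2, the lysozyme of macrophages, read 585, 906 and 618 on the 5-month arrays and 2133, 2424 and 688 on the 8-month arrays, a change of 1.74 ± 0.17 without replicate 3 (adjusted p = 1.33e-06) and 1.26 ± 0.28 with all arrays (adjusted p = 0.0789). Replicate 3 lay within the 5-month range for both genes. Lyz1 read 358, 631 and 298 on the 5-month arrays and 2202, 3394 and 507 on the 8-month arrays on the dimmer of its 2 probe sets, and changed there by 2.72 ± 0.22 without replicate 3 (adjusted p = 3.59e-07) and 2.01 ± 0.39 with all arrays (adjusted p = 0.0707). On the brighter probe set of Lyz1 the change was 1.55 without and 1.09 with replicate 3. The sequences of Lyz1 and Lyz2 are near-identical, so their probe sets may share signal. Mpeg1, a pore-forming protein of macrophages, read 589, 608 and 593 on the 5-month arrays and 1209, 1419 and 586 on the 8-month arrays, and changed by 1.13 without and 0.81 with replicate 3 (adjusted p = 2.09e-06 and 0.0848). Axl and Apoe were the members whose arrays did not overlap between ages, at 0.35 and 0.24 with all arrays.

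Homeostatic microglia genes as a group stayed near 0. Of these genes, 1 of 18 rose and 1 fell without replicate 3 (against 4.68% and 6.23% of all genes), and the medians on the 3 arrays were -0.051, 0.17 and -0.066. The member that fell, Mef2c, a transcription factor, is also on the excitatory neuron list (-0.37 without and -0.25 with replicate 3, adjusted p = 0.00595 and 0.246); the one that rose was Tgfbr1, a receptor of transforming growth factor beta (0.47 without and 0.28 with replicate 3, adjusted p = 0.022 and 0.405). Among Fc and Toll-like receptors, 4 of 10 rose and 0 fell, and the median differences were 0.45, 0.62 and 0.06. Tlr2, a receptor for bacterial lipoproteins, read 37.7, 58.1 and 76.7 on the 5-month arrays and 93.7, 144 and 67.0 on the 8-month arrays, a change of 0.93 without and 0.77 with replicate 3 (adjusted p = 0.0161 and 0.138). Fcer1g, the signalling chain of Fc receptors, read 291, 309 and 343 on the 5-month arrays and 454, 546 and 282 on the 8-month arrays, a change of 0.65 without and 0.41 with replicate 3 (adjusted p = 0.00758 and 0.298). For complement, 5 of 12 rose and 1 fell, with medians of 0.44, 0.64 and -0.086. C1qc, a chain of the C1q recognition molecule, read 655, 783 and 652 on the 5-month arrays and 1165, 1334 and 584 on the 8-month arrays, and changed by 0.85 ± 0.12 without replicate 3 (adjusted p = 0.000131) and 0.54 ± 0.19 with all arrays (adjusted p = 0.201). On this gene replicate 3 lay below all 5-month arrays. Cfp, which encodes properdin, went the other way and read 283, 251 and 281 on the 5-month arrays and 115, 137 and 368 on the 8-month arrays, a change of -0.9987 without and -0.54 with replicate 3 (adjusted p = 0.000393 and 0.363), which itself was the highest array.

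Lysosomal genes were higher on replicates 1 and 2. Without replicate 3, 18 of 45 rose and 0 fell (against 4.68% and 6.23% of all genes), with a median of 0.24 against 0.14 with all arrays and 0.053 in the wild type. The medians were 0.20, 0.25 and -0.059 on replicates 1, 2 and 3, and replicate 3 lay below all 5-month arrays for 20 of 45. Many lysosomal promoters are known to carry a palindromic E-box that transcription factor EB binds. The letters TCACGTGA, searched on both strands from 250 bases before to 50 after each start, were in the promoters of 6 of 39 matched list genes (15.4%) and of 1.12% of all 27025 genes with a RefSeq promoter. These 6 genes were Cd164, Ctsa, Ctsd, Gla, Mcoln1 and Cln3. The promoters of 2 of them that rose are shown, both from RefSeq on GRCm38.p6, with the match in capitals.
Ctsa, chr2:164833523-164833822, plus strand: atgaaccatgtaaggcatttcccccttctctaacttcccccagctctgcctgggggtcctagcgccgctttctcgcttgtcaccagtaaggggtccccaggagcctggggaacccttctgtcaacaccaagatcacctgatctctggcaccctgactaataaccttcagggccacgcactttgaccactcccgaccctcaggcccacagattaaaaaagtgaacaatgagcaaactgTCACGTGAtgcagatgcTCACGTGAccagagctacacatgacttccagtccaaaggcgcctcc
Ctsd, chr7:142387778-142388077, minus strand: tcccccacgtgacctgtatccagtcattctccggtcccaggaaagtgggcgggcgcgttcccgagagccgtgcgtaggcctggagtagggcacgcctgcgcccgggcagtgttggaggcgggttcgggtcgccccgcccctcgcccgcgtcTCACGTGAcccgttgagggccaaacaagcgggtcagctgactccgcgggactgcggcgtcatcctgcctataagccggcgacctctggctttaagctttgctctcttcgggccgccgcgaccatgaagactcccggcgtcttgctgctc

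The Ctsa promoter holds 2 matches and the Ctsd promoter 1; a match is a description of the letters and not a binding site. Ctsd, the aspartic protease cathepsin D, read 1924, 2150 and 2012 on the 5-month arrays and 2992, 3104 and 1893 on the 8-month arrays, and changed by 0.59 ± 0.064 without replicate 3 (adjusted p = 4.63e-06) and 0.39 ± 0.11 with all arrays (adjusted p = 0.133). Ctsa, a carboxypeptidase that also protects other lysosomal enzymes, read 718, 687 and 712 on the 5-month arrays and 915, 1039 and 649 on the 8-month arrays, and changed by 0.46 ± 0.082 without replicate 3 (adjusted p = 0.0009) and 0.29 ± 0.11 with all arrays (adjusted p = 0.249). Replicate 3 lay below all 5-month arrays for Ctsd and Ctsa. Of the other 4 genes with the match, Cd164 rose (0.26 without and 0.18 with replicate 3, adjusted p = 0.0289 and 0.323), while Gla (0.24 without and 0.14 with replicate 3, adjusted p = 0.45 and 0.759), Mcoln1 (-0.064 without and -0.08 with replicate 3, adjusted p = 0.784 and 0.783) and Cln3 (0.12 without and 0.21 with replicate 3, adjusted p = 0.802 and 0.705) did not pass. Ctss, a cathepsin of microglia, read 2163, 2278 and 2224 on the 5-month arrays and 3181, 3589 and 2177 on the 8-month arrays, a change of 0.60 without and 0.42 with replicate 3 (adjusted p = 0.000194 and 0.138). Ctss was also the 1 of 13 antigen presentation genes that rose, and 0 of 13 fell. The fucose-releasing hydrolase Fuca1 read 474, 519 and 447 on the 5-month arrays and 648, 792 and 428 on the 8-month arrays, a change of 0.57 without and 0.35 with replicate 3 (adjusted p = 0.000503 and 0.252). On the list of neuronal ceroid lipofuscinosis and palmitoylation genes, 3 of 25 rose and 1 fell (against 4.68% and 6.23% of all genes). These counts lay within 2 genes of what the shares over all genes give, and the list median was 0.039 without replicate 3. The risers were Ctsd, Grn (0.40 without and 0.26 with replicate 3, adjusted p = 0.00153 and 0.241), the progranulin gene, and Tpp1 (0.27 without and 0.14 with replicate 3, adjusted p = 0.0195 and 0.515), a tripeptidase. The gene that fell was Zdhhc2, a palmitoyltransferase, which read 497, 422 and 469 on the 5-month arrays and 337, 350.2 and 349 on the 8-month arrays. Zdhhc2 was lower on all 3 arrays, at -0.40 ± 0.12 with all arrays (adjusted p = 0.133) and -0.41 without replicate 3.

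Cholesterol biosynthesis genes were lower on replicates 1 and 2 at 8 months, and some were lower on all 3 arrays. The median differences from the 5-month mean were -0.25, -0.33 and -0.008 on replicates 1, 2 and 3. Without replicate 3, 0 of 20 rose and 7 fell (against 4.68% and 6.23% of all genes), with a median of -0.31 against 0.15 in the wild type. With all arrays 0 of 20 passed, while 18 of 20 had a negative change, with a median of -0.24. For 6 of 20 genes all 8-month arrays lay below all 5-month arrays, against 7.87% of all genes; these were Hmgcs1, Sqle, Fdft1, Dhcr7, Sc5d and Mvk. The enzymes of this pathway are known to share sterol-regulated promoters. The sterol regulatory letters TCACCCCAC were in the promoter of 1 of 16 matched members (6.25%) and of 0.614% of all genes, and the member is shown with the match in capitals.
Hmgcs1, chr13:119690101-119690400, plus strand: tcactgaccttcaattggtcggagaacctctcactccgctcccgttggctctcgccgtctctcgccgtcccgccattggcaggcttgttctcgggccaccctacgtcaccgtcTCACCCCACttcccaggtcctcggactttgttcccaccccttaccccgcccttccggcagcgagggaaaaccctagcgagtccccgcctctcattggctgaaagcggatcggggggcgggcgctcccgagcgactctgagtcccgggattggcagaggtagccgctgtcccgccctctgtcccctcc

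Hmgcs1, the synthase that makes hydroxymethylglutaryl-CoA, read 2660, 2576 and 2614 on the 5-month arrays and 2086, 1791 and 2436 on the 8-month arrays, and changed by -0.44 ± 0.069 without replicate 3 (adjusted p = 0.000278) and -0.35 ± 0.078 with all arrays (adjusted p = 0.0823). In the wild type Hmgcs1 changed by 0.13. Idi1, which interconverts isoprenoid units, read 453, 389.5 and 402 on the 5-month arrays and 190.3, 190.4 and 416 on the 8-month arrays, and changed by -1.07 ± 0.11 without replicate 3 (adjusted p = 2.12e-06) and -0.75 ± 0.18 with all arrays (adjusted p = 0.0934). Replicates 1 and 2 of Idi1 were close to each other while replicate 3 lay within the 5-month range. Cyp51, the sterol demethylase, read 324, 342 and 370.3 on the 5-month arrays and 189.7, 181 and 327 on the 8-month arrays, a change of -0.85 without and -0.63 with replicate 3 (adjusted p = 1.4e-05 and 0.0844). Msmo1, which oxidises the sterol methyl group, read 804, 1019 and 931 on the 5-month arrays and 496, 523 and 990.2 on the 8-month arrays, a change of -0.82 without and -0.52 with replicate 3 (adjusted p = 8.95e-06 and 0.156). Fdps, the farnesyl diphosphate synthase, changed by -0.66 without and -0.41 with replicate 3 (adjusted p = 7.93e-05 and 0.208), against 0.33 in the wild type. Of the lipid transport genes, 5 of 20 rose and 0 fell (against 4.68% and 6.23% of all genes), and the medians were 0.10, 0.21 and -0.0047. Apod, a lipocalin that carries lipids, read 3606, 3369 and 3576 on the 5-month arrays and 8358, 6622 and 3480 on the 8-month arrays on its brighter probe set, a change of 1.06 without and 0.71 with replicate 3 (adjusted p = 2.35e-06 and 0.116). Abca1, the cholesterol efflux pump, read 900.3, 895 and 772 on the 5-month arrays and 1529, 1743 and 878 on the 8-month arrays, a change of 0.93 without and 0.67 with replicate 3 (adjusted p = 3.77e-06 and 0.0846). Apoe read 7627, 7600 and 8073 on the 5-month arrays and 9611, 9253 and 8301 on the 8-month arrays, and all 8-month arrays were above (0.24 ± 0.077 with all arrays (adjusted p = 0.173) and 0.29 without replicate 3).

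Cerebellar genes showed the lowest list median. Without replicate 3, 0 of 16 rose and 8 fell (against 4.68% and 6.23% of all genes), the median was -0.40, and replicates 1, 2 and 3 had medians of -0.53, -0.30 and 0.016. Most of the genes that fell mark Purkinje cells. Car8, a carbonic anhydrase relative that acts on calcium release in these cells, read 1800, 1970 and 1844 on the 5-month arrays and 791, 717 and 1922 on the 8-month arrays, and changed by -1.28 ± 0.077 without replicate 3 (adjusted p = 3.5e-09) and -0.86 ± 0.21 with all arrays (adjusted p = 0.0945). Pcp2 (Purkinje cell protein) read 1529, 1625 and 1524 on the 5-month arrays and 781, 700.1 and 1576 on the 8-month arrays, and changed by -1.05 ± 0.09 without replicate 3 (adjusted p = 4.3e-07) and -0.72 ± 0.18 with all arrays (adjusted p = 0.0945). In both genes replicates 1 and 2 lay far below the 5-month arrays and replicate 3 within their range. Ppp1r17, a phosphatase inhibitor of Purkinje cells, read 433, 418 and 439.5 on the 5-month arrays and 192, 198 and 455 on the 8-month arrays, a change of -1.07 without and -0.71 with replicate 3 (adjusted p = 6.31e-06 and 0.127). Calb1, a calcium-binding protein of Purkinje cells and some interneurons, read 2763, 2951 and 2901 on the 5-month arrays and 1692, 1842 and 2740 on the 8-month arrays, and changed by -0.69 ± 0.065 without replicate 3 (adjusted p = 9.56e-07) and -0.49 ± 0.11 with all arrays (adjusted p = 0.0848). For Calb1 replicate 3 was just below the 5-month arrays, and Slc1a6, the Purkinje cell glutamate transporter, was the other gene with all 8-month arrays below (-0.65 with all arrays). The same number of list genes had all 8-month arrays above, Zic1 and Cdh15, with changes of 0.14 and 0.17 with all arrays that did not pass. In the wild type the list median was -0.0021.

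Lists of cortical, GABAergic, thalamic and striatal neuron genes were measured next. Among excitatory cortical neuron genes, 0 of 28 rose and 7 fell without replicate 3 (against 4.68% and 6.23% of all genes), with medians of -0.12, -0.18 and -0.054 on the 3 arrays and -0.096 in the wild type. Nr4a2, a nuclear receptor also on the immediate early list, read 473, 524 and 447 on the 5-month arrays and 162, 189.9 and 459.5 on the 8-month arrays, a change of -1.38 without and -0.98 with replicate 3 (adjusted p = 3.59e-07 and 0.0789). Nrgn, the calmodulin-binding neurogranin, read 1605, 1517 and 1474 on the 5-month arrays and 1088, 1072 and 1410 on the 8-month arrays, and all 8-month arrays were below (-0.37 ± 0.095 with all arrays (adjusted p = 0.103) and -0.49 without replicate 3). Kcnv1, a potassium channel subunit, read 165, 163 and 159 on the 5-month arrays and 92.9, 70.3 and 138 on the 8-month arrays, again lower on all arrays (-0.71 ± 0.16 with all arrays (adjusted p = 0.0846) and -0.89 without replicate 3). Among GABAergic genes, 2 of 23 rose and 5 fell, with medians of -0.12, -0.20 and 0.069. Pvalb, the parvalbumin gene, read 1906, 2005 and 2014 on the 5-month arrays and 1421, 1312 and 1998 on the 8-month arrays. It changed by -0.52 without and -0.36 with replicate 3 (adjusted p = 2.28e-05 and 0.127). The risers were the peptides Npy (0.48 without and 0.36 with replicate 3, adjusted p = 0.0116 and 0.204) and Tac1 (0.32 without and 0.25 with replicate 3, adjusted p = 0.0266 and 0.234). Gad1, a marker of inhibitory neurons, changed by -0.034 without and 0.071 with replicate 3 (adjusted p = 0.829 and 0.759). The marker Gad2 read 800, 727 and 633 at 5 months and 815, 681 and 706 at 8 months. The marker Slc32a1 read 749, 605 and 723 at 5 months and 597, 567 and 650 at 8 months. Of thalamic genes, 0 of 25 rose and 5 fell, with medians of -0.14, -0.15 and 0.048. Kitl, a growth factor, read 638, 835 and 651 on the 5-month arrays and 292, 385 and 822 on the 8-month arrays, a change of -1.001 without and -0.59 with replicate 3 (adjusted p = 1.86e-05 and 0.248). Of striatal genes, 2 of 19 rose and 2 fell, with medians of -0.11, -0.024 and 0.017, and the counts lay within 2 genes of what the shares over all genes give. Arpp21, a cyclic AMP-regulated phosphoprotein, was lower on all arrays (-0.29 ± 0.059 with all arrays (adjusted p = 0.0753) and -0.32 without replicate 3), and Ppp1r1b, the dopamine target DARPP-32, was higher on all arrays (0.34 ± 0.11 with all arrays (adjusted p = 0.164) and 0.47 without replicate 3).

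At synapses, 1 of 27 rose and 6 fell of the presynaptic genes measured (against 4.68% and 6.23% of all genes), with medians of -0.073, -0.11 and 0.012. All 8-month arrays lay below for 7 of 27, against 7.87% of all genes: Stx1a, Vamp1, Rims1, Pclo, Cplx2, Dnm1 and Napa. Stx1a, a plasma membrane protein of vesicle fusion, read 1405, 1293 and 1332 on the 5-month arrays and 908, 999.6 and 1200 on the 8-month arrays, and changed by -0.49 ± 0.073 without replicate 3 (adjusted p = 0.000177) and -0.39 ± 0.083 with all arrays (adjusted p = 0.0789). Rims1, an active zone scaffold, read 1160, 1211 and 1295 on the 5-month arrays and 922, 889 and 1006 on the 8-month arrays, a change of -0.34 ± 0.086 with all arrays (adjusted p = 0.0945) and -0.41 without replicate 3. For both genes replicate 3 lay between the 5-month arrays and the other 8-month arrays. Of postsynaptic genes, 1 of 21 rose and 5 fell, with medians of -0.18, -0.16 and 0.0038; Shank3, a scaffold, read 619.9, 574 and 584 on the 5-month arrays and 388, 411 and 546 on the 8-month arrays, a change of -0.41 ± 0.11 with all arrays (adjusted p = 0.103) and -0.55 without replicate 3. Peptide genes are released from other vesicles. Of granin and neuropeptide genes, 2 of 28 rose and 2 fell, while 6 of 28 had all 8-month arrays above, against 5.87% of all genes. The granin and neuropeptide calls lay within 2 genes of what the shares over all genes give. For genes of hypothalamus, pituitary and hindbrain 2 of 19 rose and 0 fell, and 5 of 19 had all 8-month arrays above. The calls of this list also lay within 2 genes of what those shares give. Avp, the vasopressin gene, read 143, 127 and 119 on the 5-month arrays and 263, 261 and 153 on the 8-month arrays, and changed by 0.93 ± 0.17 without replicate 3 (adjusted p = 0.00113) and 0.71 ± 0.19 with all arrays (adjusted p = 0.106). Pmch, which encodes melanin-concentrating hormone, read 524, 529.5 and 544 on the 5-month arrays and 715, 689.8 and 566 on the 8-month arrays, a change of 0.31 ± 0.095 with all arrays (adjusted p = 0.154) and 0.39 without replicate 3.

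Immediate early genes, which neurons switch on with activity, held the largest decreases among the genes named. Without replicate 3, 6 of 31 rose and 14 fell (against 4.68% and 6.23% of all genes), and the median was -0.38, but the arrays differed, with medians of -0.053, -0.64 and 0.0018. Arc, a synaptic protein made after firing, read 433, 392 and 359.6 on the 5-month arrays and 56.6, 56.4 and 506 on the 8-month arrays, and changed by -2.56 ± 0.32 without replicate 3 (adjusted p = 1.96e-05) and -1.74 ± 0.48 with all arrays (adjusted p = 0.125). Replicates 1 and 2 were alike and replicate 3 was the highest of the 6. Npas4, an activity-induced transcription factor of neurons, read 74.5, 85.3 and 62.1 on the 5-month arrays and 8.60, 14.8 and 73.8 on the 8-month arrays, a change of -1.71 without and -1.19 with replicate 3 (adjusted p = 1.4e-05 and 0.103). Egr2, a zinc finger factor, read 147, 182 and 83.0 on the 5-month arrays and 5.05, 39.6 and 129 on the 8-month arrays, a change of -2.08 without and -1.43 with replicate 3 (adjusted p = 0.00136 and 0.175). Egr1, of the same family, read 2397, 2312 and 2235 on the 5-month arrays and 1012, 517 and 2235 on the 8-month arrays, a change of -1.68 without and -1.22 with replicate 3 (adjusted p = 2.09e-06 and 0.0796). Nr4a1, an orphan nuclear receptor, read 638, 719 and 509.9 on the 5-month arrays and 274, 126 and 605 on the 8-month arrays, a change of -1.71 without and -1.27 with replicate 3 (adjusted p = 6.95e-05 and 0.0848), and Nr4a3 changed by -1.48 without and -0.9976 with replicate 3 (adjusted p = 1.11e-05 and 0.126). Replicate 3 lay within the 5-month range for Npas4, Egr2, Egr1, Nr4a1 and Nr4a3, and above it for Arc. Npas4 and Egr2 were not above background on 8-month replicate 1, so the sizes of their changes are uncertain. At 5 months the knockout means of these genes were above the wild-type means. They were 395 against 187 in Arc, 74.0 against 50.3 in Npas4 and 137 against 43.0 in Egr2. In Egr1, Nr4a1 and Nr4a3 they were 2315 against 1246, 622 against 319 and 361 against 211. Arc varied between arrays in the 5-month wild type as well, at 381, 73.2 and 108. Members that rose were Ccn1, Nptx2, Gadd45g, Jund, Gadd45b and Jun. Ccn1, a matrix protein, read 68.5, 70.6 and 38.2 on the 5-month arrays and 940.2, 197 and 50.4 on the 8-month arrays, a change of 2.53 ± 0.36 without replicate 3 (adjusted p = 0.00012) and 1.61 ± 0.55 with all arrays (adjusted p = 0.191). Jun and Jund were higher on all 8-month arrays, at 0.43 and 0.44 with all arrays from their brightest probe sets. Homer1, a scaffold with a short activity-induced form, read 651, 652 and 724 on the 5-month arrays and 343, 130.1 and 957 on the 8-month arrays on the probe set with its largest change (-1.60 without and -0.97 with replicate 3, adjusted p = 0.000193 and 0.25). This probe set changed by -1.91 in the wild type, and the brightest probe set of Homer1 changed by -0.38 without and -0.24 with replicate 3 (adjusted p = 0.00207 and 0.266) in the knockout. The letters TGACGTCA were in the promoters of 2 of 26 matched list genes (7.69%) and of 2.03% of all genes. These were Dusp1 and Btg2, which did not pass without replicate 3 (adjusted p = 0.545 and 0.102).

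Genes induced by glucocorticoids separated replicate 1 from the other arrays. Their median differences were 0.93, 0.11 and 0.021 on replicates 1, 2 and 3, and 11 of 26 rose and 1 fell without replicate 3 (against 4.68% and 6.23% of all genes). In the wild type the list median was -0.37, in the opposite direction. Plin4, a coat protein of lipid droplets, read 106, 76.5 and 91.2 on the 5-month arrays and 732, 222 and 68.1 on the 8-month arrays, and changed by 1.99 ± 0.36 without replicate 3 (adjusted p = 0.0012) and 1.29 ± 0.47 with all arrays (adjusted p = 0.225). Sult1a1, a sulfotransferase, read 96.3, 106 and 81.6 on the 5-month arrays and 514, 319.8 and 70.7 on the 8-month arrays, and changed by 1.94 ± 0.25 without replicate 3 (adjusted p = 2.45e-05) and 1.25 ± 0.40 with all arrays (adjusted p = 0.16). For both genes replicate 3 lay below all 5-month arrays, and the wild type changed by -1.51 and -0.72. The metallothionein Mt2 read 3343, 3277 and 2908 on the 5-month arrays and 7645, 5310 and 2926 on the 8-month arrays, and Mt1 read 6700, 6466 and 6277 on the 5-month arrays and 12400, 10040 and 6371 on the 8-month arrays. Mt2 changed by 0.9961 without and 0.65 with replicate 3 (adjusted p = 6.88e-06 and 0.142), and Mt1 by 0.77 without and 0.52 with replicate 3 (adjusted p = 5.61e-06 and 0.126). Cdkn1a, the cell cycle inhibitor p21, read 228, 192 and 193 on the 5-month arrays and 1916, 273 and 234 on the 8-month arrays, so the rise was mainly that of replicate 1. Of clock genes, 0 of 20 rose and 5 fell, with medians of -0.10, -0.14 and -0.039. Dbp, an output factor of the clock, read 1210, 1113 and 1003 on the 5-month arrays and 437, 661 and 1130 on the 8-month arrays, a change of -1.02 without and -0.70 with replicate 3 (adjusted p = 8.28e-06 and 0.111). Per2, a core repressor of the clock, was lower on all 8-month arrays (-0.72 ± 0.20 with all arrays (adjusted p = 0.121) and -0.93 without replicate 3), and changed by -0.63 in the wild type. The labels do not give the time of day at which tissue was taken.

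**Figure D3:**
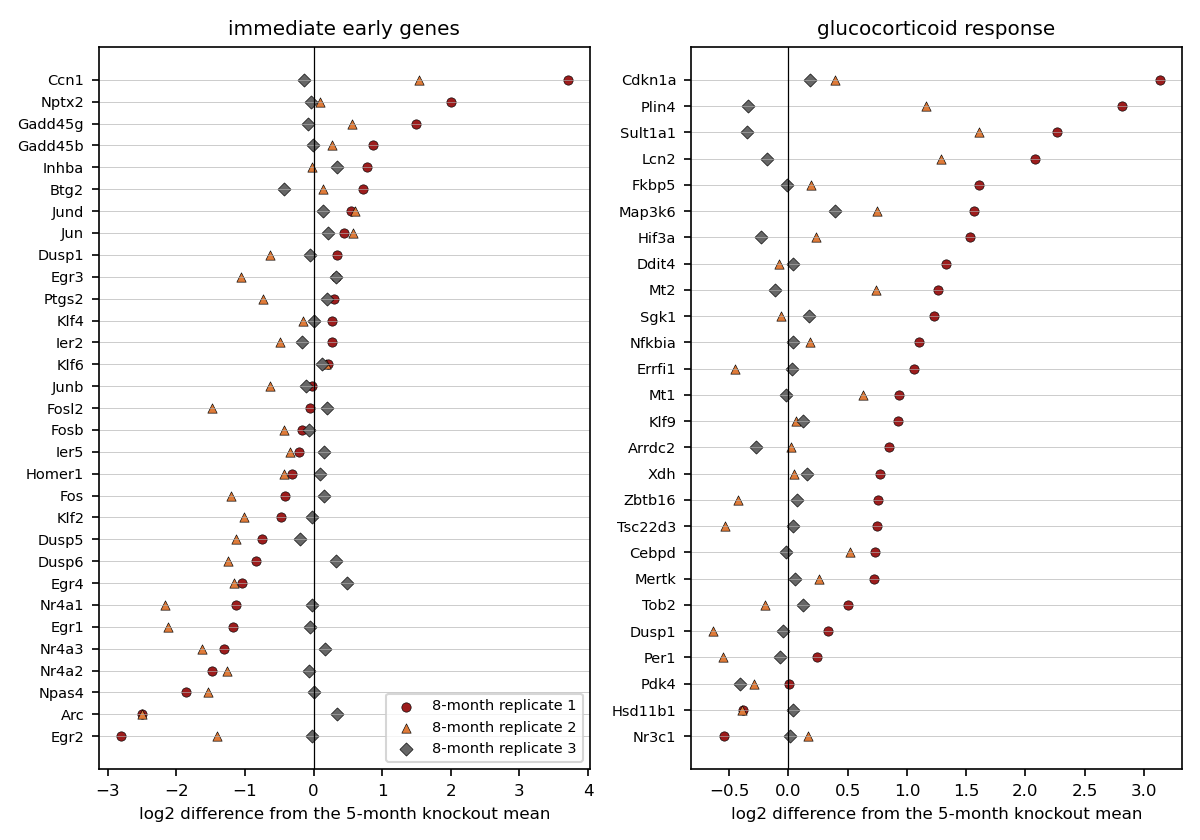
Log2 difference of each 8-month knockout array from the 5-month knockout mean, for every measured immediate early gene (left) and glucocorticoid-induced gene (right), ordered by replicate 1. Replicates 1 and 2 lie low together for Arc, Npas4 and the Egr and Nr4a genes, replicate 1 lies highest for most glucocorticoid-induced genes, and replicate 3 lies near 0 in both lists.

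Heat shock and endoplasmic reticulum stress genes were mixed. Without replicate 3, 3 of 37 rose and 10 fell (against 4.68% and 6.23% of all genes), with medians of -0.11, -0.20 and 0.21. Replicate 3 lay above all 5-month arrays for 29 of 37 genes, against 24.2% of all genes, while replicates 1 and 2 lay above for 9 and 7. This was the 1 list on which replicate 3 had a median over 0.2. Dnajb1, a cochaperone, read 889, 824 and 907 on the 5-month arrays and 615, 570.4 and 1275 on the 8-month arrays, a change of -0.54 ± 0.088 without replicate 3 (adjusted p = 0.000377) and -0.21 ± 0.18 with all arrays (adjusted p = 0.644). Chordc1, a partner of Hsp90, read 687, 676 and 715 on the 5-month arrays and 436, 419.6 and 831 on the 8-month arrays, and changed by -0.67 ± 0.086 without replicate 3 (adjusted p = 3.16e-05) and -0.38 ± 0.16 with all arrays (adjusted p = 0.294). For both, replicate 3 lay above the 5-month arrays and replicates 1 and 2 below. Atf4, a transcription factor of the stress response, was lower on all 8-month arrays (-0.37 ± 0.10 with all arrays (adjusted p = 0.124) and -0.52 without replicate 3). Heat shock factors bind repeated units of 5 bases. The letters GAANNTTCNNGAA were in the promoters of 4 of 32 matched list genes (12.5%) and of 0.662% of all genes. The promoters of Hspd1 and Hspe1 overlap on opposite strands, so the same stretch of letters counts for both genes. These 2 genes did not pass without replicate 3 (adjusted p = 0.134 and 0.341). The promoter of Chordc1, with 3 overlapping matches in capitals, is shown.
Chordc1, chr9:18292017-18292316, plus strand: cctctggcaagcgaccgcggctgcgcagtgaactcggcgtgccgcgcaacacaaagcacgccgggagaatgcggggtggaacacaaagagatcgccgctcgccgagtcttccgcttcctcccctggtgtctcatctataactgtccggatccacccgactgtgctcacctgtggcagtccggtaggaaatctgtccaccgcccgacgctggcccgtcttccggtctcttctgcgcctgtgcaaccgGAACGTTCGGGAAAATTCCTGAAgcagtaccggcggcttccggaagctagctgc

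Of the oxidative stress and metal genes, 7 of 25 rose and 1 fell (against 4.68% and 6.23% of all genes), with medians of 0.25, 0.16 and -0.032. Txnip, an inhibitor of thioredoxin, read 193, 225 and 219 on the 5-month arrays and 754, 361 and 178 on the 8-month arrays, a change of 1.24 without and 0.79 with replicate 3 (adjusted p = 0.000264 and 0.203). Nqo1, Gsr, Fth1 and Slc39a14 had all 8-month arrays above, with changes between 0.18 and 0.77 with all arrays. Of apoptosis and p53 genes, 4 of 19 rose and 0 fell, with medians of 0.32, 0.26 and -0.076; besides Cdkn1a these were Trp53inp1 (0.71 without and 0.43 with replicate 3, adjusted p = 0.0173 and 0.385), Pmaip1 (0.87 without and 0.53 with replicate 3, adjusted p = 0.0209 and 0.377) and Bcl2l11 (0.72 without and 0.41 with replicate 3, adjusted p = 0.0344 and 0.461). Bcl2l11, a death-promoting member of the Bcl2 family, read 106, 88.2 and 93.0 on the 5-month arrays and 161, 169 and 71.1 on the 8-month arrays. Among respiratory chain genes, 0 of 37 rose and 0 fell, and the medians were 0.0029, -0.063 and 0.029.

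Interferon-induced genes were lower on replicates 1 and 2. Without replicate 3, 0 of 30 rose and 5 fell (against 4.68% and 6.23% of all genes), the medians were -0.38, -0.17 and 0.064, and the wild-type median was 0.17. Ifit3, an antiviral effector, read 587, 348 and 414 on the 5-month arrays and 223, 235 and 475 on the 8-month arrays, and changed by -0.90 ± 0.18 without replicate 3 (adjusted p = 0.003) and -0.60 ± 0.22 with all arrays (adjusted p = 0.223). Ifi27l2a, an interferon-induced mitochondrial protein, read 147, 103 and 107 on the 5-month arrays and 35.3, 36.4 and 149 on the 8-month arrays, and changed by -1.30 ± 0.33 without replicate 3 (adjusted p = 0.016) and -0.73 ± 0.40 with all arrays (adjusted p = 0.432). Replicate 3 lay within the 5-month range for Ifit3 and above all 5-month arrays for Ifi27l2a. Among the 14 chemokine and cytokine genes 2 rose and 1 fell, with medians of -0.081, 0.54 and -0.11, and these counts lay within 2 genes of what the shares over all genes give. Cx3cl1, the neuronal chemokine fractalkine, read 1180, 1156 and 1140 on the 5-month arrays and 919.5, 791 and 1155 on the 8-month arrays, a change of -0.44 without and -0.32 with replicate 3 (adjusted p = 0.00058 and 0.127). The antigen presentation genes had medians of -0.023, 0.26 and -0.038. Only 3 lymphocyte genes were measured, and Ighm, the heavy chain of IgM, read 228, 224 and 309 on the 5-month arrays and 739.7, 267 and 127 on the 8-month arrays. Its change, 0.77 without and 0.23 with replicate 3 (adjusted p = 0.0344 and 0.799), rested mainly on replicate 1. Of 7 blood genes, S100a8, a neutrophil protein, rose (1.42 without and 1.01 with replicate 3, adjusted p = 0.0247 and 0.267) and 0 fell, with medians of 0.0049, 0.47 and 0.12.

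Among oligodendrocyte and myelin genes, 6 of 26 rose and 2 fell (against 4.68% and 6.23% of all genes), with medians of -0.014, 0.24 and -0.089. Ugt8a, which makes the myelin lipid galactosylceramide, was lower on all 8-month arrays and read 656, 771 and 684 on the 5-month arrays and 236, 390.1 and 634 on the 8-month arrays, a change of -0.82 ± 0.20 with all arrays (adjusted p = 0.0928) and -1.15 without replicate 3. Among precursor and cell cycle genes, 3 of 18 rose and 2 fell, with medians of -0.12, 0.062 and 0.034. Gpr17, a receptor of maturing oligodendrocyte precursors, read 188, 211 and 198 on the 5-month arrays and 63.8, 73.2 and 169.9 on the 8-month arrays, a change of -0.95 ± 0.23 with all arrays (adjusted p = 0.0928) and -1.32 without replicate 3, and -0.56 in the wild type. Both genes were lowest on replicates 1 and 2. Among vascular genes, 3 of 27 rose and 1 fell, with medians of 0.10, 0.29 and 0.04, and these counts lay within 2 genes of what the shares over all genes give. Icam1, an adhesion molecule, read 56.0, 66.0 and 47.9 on the 5-month arrays and 163, 129.9 and 57.6 on the 8-month arrays, a change of 1.12 without and 0.74 with replicate 3 (adjusted p = 0.00991 and 0.274). Among meningeal and matrix genes, 5 of 29 rose and 0 fell, with medians of 0.20, 0.50 and -0.15; Fmod, a collagen-binding proteoglycan, read 396, 493 and 359.8 on the 5-month arrays and 629, 790.4 and 411 on the 8-month arrays, a change of 0.76 without and 0.54 with replicate 3 (adjusted p = 0.00113 and 0.147). Among choroid plexus and ependymal genes, 0 of 19 rose and 0 fell, with medians of 0.11, 0.17 and 0.10. Among the 10 cochlear genes measured 3 rose and 0 fell, with medians of 0.28, 0.16 and -0.054; these were Gjb6, Myo6 and Atp1b2, and Gjb6, a connexin, is also on the astrocyte list (0.77 without and 0.53 with replicate 3, adjusted p = 0.000403 and 0.142).

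**Figure D4:**
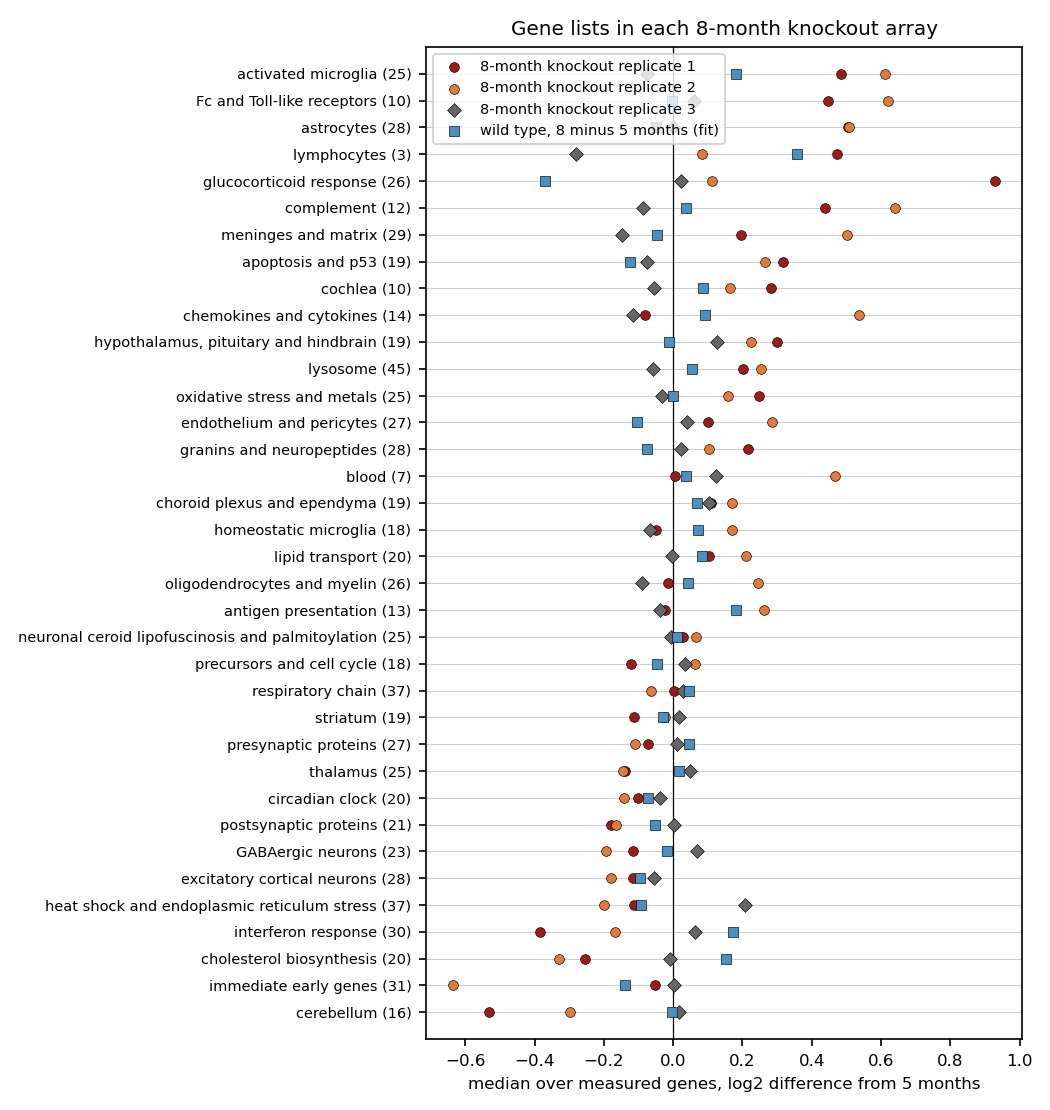
Median log2 difference from the 5-month mean of each gene list (number of measured genes in parentheses) on the 8-month knockout replicates 1 (dark red), 2 (orange) and 3 (grey), with the median wild-type change from 5 to 8 months (blue). Astrocyte, activated microglia and lysosomal lists lie to the right and cerebellar and cholesterol lists to the left on replicates 1 and 2, while replicate 3 lies within 0.3 of 0 for every list.

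The spread between arrays was wider in the 8-month knockout than in any other group. The median standard deviation over probe sets was 0.196 on the log2 scale, against 0.142 in the 5-month knockout and 0.132 to 0.149 over the 5 other groups. The 8-month knockout held the largest standard deviation of the 6 groups for 34.2% of probe sets. Replicate 3 was the array farthest from the other 2 for 43.1% of probe sets, replicate 1 for 29.9% and replicate 2 for 27.0%. The 10 genes with the widest spread were Ccn1, Cdkn1a, Arc, Apod, Plin4, Lyz1, Marcks, Ankrd11, Socs3 and Egr2, with standard deviations from 1.93 down to 1.39. In Ccn1, Cdkn1a and Plin4 replicate 1 was highest and replicate 3 lowest. Marcks, a substrate of protein kinase C, read 58.3, 86.3 and 49.7 on the 5-month arrays and 2.35, 108 and 53.6 on the 8-month arrays on the probe set concerned, where replicate 1 alone was low; its change was -0.63 without and -0.37 with replicate 3 (adjusted p = 0.41 and 0.737), and on its 6 other probe sets the changes without replicate 3 lay between -0.49 and 0.067. Socs3, an inhibitor of cytokine signalling, read 374, 238 and 45.1 at 8 months on its probe set of widest spread.

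In the wild type, 0 probe sets passed between 5 and 8 months with all arrays (limma), with 1061 higher and 1130 lower at an unadjusted p under 0.05 and a smallest adjusted p of 0.213. In the fit without the knockout replicate 3, which enters through the shared estimate of spread, 1 rose and 7 fell in the wild type. The test of whether the knockout changed differently from the wild type called 0 probe sets with all arrays (smallest adjusted p = 0.155, 1500 higher and 1588 lower at an unadjusted p under 0.05). Without replicate 3 it called 543 higher (2.01%) and 542 lower (2.01%). The knockout and the wild type differed most in their change for Plin4, by 3.50 ± 0.49 (adjusted p = 0.00032), with wild-type signals of 103, 76.6 and 150 at 5 months and 11.6, 32.5 and 43.8 at 8 months. The 11.6 was not above the background of its array (12.4), so the size of this difference is uncertain. For Cckbr, a cholecystokinin receptor, the difference was -2.32 ± 0.30 (adjusted p = 0.000143). Cckbr read 88.8, 71.8 and 93.1 on the 5-month arrays and 13.1, 18.8 and 91.9 on the 8-month arrays in the knockout and 71.8, 76.3 and 47.6 and 94.1, 109 and 129 in the wild type at these ages, and a brighter probe set changed by -0.47 without and -0.29 with replicate 3 in the knockout. The Cckbr signal of 13.1 was not above the background of its array (13.2), so the size of its difference is uncertain too. Serpinb1a, an inhibitor of neutrophil proteases, read 161, 187 and 199 on the 5-month arrays and 70.1, 69.8 and 165 on the 8-month arrays, and differed by -1.89. A dimmer probe set of Serpinb1a changed by 0.0046 without replicate 3 in the knockout and did not pass. Rian, a long noncoding RNA of an imprinted cluster, read 1353, 1732 and 1646 on the 5-month arrays and 552, 587 and 1509 on the 8-month arrays, and differed by -1.84. In Cckbr and Serpinb1a the wild type was higher at 8 months by 0.65 and 0.70, changes that did not pass.

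Further genes with the largest changes without replicate 3 came from outside these groups. Higher on the probe set named were Slc2a4, the insulin-responsive glucose transporter (1.83 without and 1.47 with replicate 3, adjusted p = 0.000125 and 0.0707), Rprd2 (1.78 without and 1.18 with replicate 3, adjusted p = 0.000125 and 0.158), Zfp36, which speeds decay of cytokine transcripts (1.68 without and 1.17 with replicate 3, adjusted p = 0.0019 and 0.171), and Fem1b (1.59 without and 1.24 with replicate 3, adjusted p = 0.0218 and 0.199). Slc2a4 read 28.4, 13.5 and 6.80 on the 5-month arrays and 111, 83.3 and 36.8 on the 8-month arrays, and all 8-month arrays were above, but 2 of the 3 arrays at 5 months were not above background, so the size of its change is uncertain. The probe set of Rprd2 was dim, at 28.8, 26.6 and 21.3 on the 5-month arrays, and of its 5 other probe sets 4 changed the opposite way without replicate 3, between -0.48 and -0.048, none of which passed. Fem1b read 5.01, 60.3 and 52.3 on the 5-month arrays and 233, 67.8 and 48.7 on the 8-month arrays, where replicate 1 stood alone. A far brighter probe set of Fem1b, at 1352, 1419 and 1411 on the 5-month arrays, changed by -0.27 without and -0.25 with replicate 3, the opposite way, and did not pass. Lower genes included Tra2a, a splicing regulator, which read 153, 165 and 153 on the 5-month arrays and 44.7, 34.5 and 169 on the 8-month arrays, a change of -1.65 ± 0.14 without replicate 3 (adjusted p = 4.3e-07) and -1.12 ± 0.28 with all arrays (adjusted p = 0.0945); a brighter probe set changed by -0.48 without and -0.29 with replicate 3. The others were Zmym1 (-1.61 without and -1.07 with replicate 3, adjusted p = 3.44e-06 and 0.126), Fbxo30 (-1.57 without and -1.22 with replicate 3, adjusted p = 0.00037 and 0.0848), Zkscan3 (-1.46 without and -1.05 with replicate 3, adjusted p = 0.000483 and 0.126), Haghl (-1.44 without and -0.9985 with replicate 3, adjusted p = 1.8e-05 and 0.106) and Rif1, a factor of DNA repair and replication timing (-1.41 without and -1.12 with replicate 3, adjusted p = 0.00356 and 0.112). In Fbxo30 and Rif1 all 8-month arrays lay below all 5-month arrays on these probe sets, though Fbxo30 was not above background on 8-month replicate 1. Brighter probe sets changed less without replicate 3, by -0.51 in Rif1 and -0.12 in Haghl, and 2 dimmer ones of Fbxo30 by -0.025 and 0.082. Of the 52 genes named for a large change, a wide spread or a small p, 31 had further tested probe sets. Of these 75 further probe sets, 59 had the same direction without replicate 3, 28 of them called, and 16 had the opposite direction, 0 of them called. Over all probe sets tested, 4.16% rose and 5.31% fell without replicate 3. Socs3 was named from more than 1 probe set, so its probe sets enter these counts more than once, each time called in the same direction.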

How the data were processed

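RNA of 18 mouse samples was hybridised to 1 Affymetrix array each. The authors deposited probe set intensities on a linear scale; the software behind them is not given in the sources used here. Values were used as deposited, as log2(intensity + 16), so fold changes of dim genes are understated. The 64 control probe sets and the lowest 40% by mean were left out, which left 27022, 22963 of them with 1 gene symbol in the platform annotation. limma 3.58.1 (R 4.3.3) fitted the 6 groups of genotype and age with a sex term over all 18 arrays, with trended eBayes and Benjamini-Hochberg adjustment at 0.05; "passed", "rose" and "fell" mean this test. Errors of log2 changes are standard errors, with 3 arrays a group (2 at 8 months in the knockout without replicate 3). The model was tested on simulated data. Replicates were numbered in the order of the sample records.

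A gene of a list was taken from its brightest probe set. The rule named Ppt1, up to 15 genes each way with the largest change that passed without overlap of arrays, up to 6 with overlap, the 10 widest spreads at 8 months, up to 4 passing members per list by p (or the 2 brightest), and up to 5 each way for the wild type and for the genotype difference. As 1 probe set passed with all arrays, the rule was also applied to the fit without 8-month knockout replicate 3, and genes with the smallest p and no overlap were added, both after the data were seen. The members, the 36 lists (929 genes) and the tests were chosen with earlier results of these data known. Promoters came from RefSeq (GRCm38.p6). Alternatives were other scalings, pseudocounts, filters, variance models, array weights, 1 probe set per gene, fewer groups, and each array left out. The number of arrays limits the precision.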

Additional observations from a re-analysis of the deposited data

Results flagged for a closer look

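In the fit without 8-month knockout replicate 3, the change from 5 to 8 months differed between knockout and wild type, by limma's test of the difference, in the named genes below. On the log2 scale the change in the knockout minus that in the wild type was 3.50 in Plin4, 2.67 in Sult1a1, 2.56 in Ccn1, 2.41 in Gpnmb and 2.35 in Cdkn1a. The wild type itself changed by -1.51, -0.72, -0.029, -0.015 and -0.62 in these genes, so a part of the difference is its fall in Plin4, Sult1a1 and Cdkn1a. The same difference was -2.32 in Cckbr, -2.27 in Arc, -1.94 in Serf1, -1.89 in Serpinb1a and -1.84 in Rian. Here the wild type changed by 0.65, -0.29, 0.77, 0.70 and 0.39. A part of the difference is therefore its rise in Cckbr, Serf1, Serpinb1a and Rian. In the knockout without replicate 3, the other probe set of Serpinb1a changed by 0.0046, and those of Serf1 by -0.31, 0.18 and -0.35. None of them passed. Plin4 in the wild type, and Cckbr and Serf1 in the knockout, were not above background on 1 array at 8 months, so these sizes are uncertain. Of the 10 genes, 0 passed the test of the difference with all arrays, where the adjusted p lay between 0.155 and 0.427.

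The spike-in control probe sets, which no comparison used, lay 0.425 above their medians on the log2 scale on 8-month knockout replicate 3, above every other array. Groups of 3 arrays were not searched for single outlying values.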

How the results depend on the processing

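The main limit is the 8-month knockout replicate 3. Leaving out 1 array at a time gave 0 to 1125 higher and 0 to 1435 lower probe sets in the knockout, 0 to 543 and 0 to 542 for the difference between genotypes, and 0 of either in the wild type when 1 of its own arrays was left out; the high ends were without 8-month knockout replicate 3, and the other arrays left out gave at most 2 in the knockout. Array weights gave 421 and 502 in the knockout, 97 and 88 for the difference and 2 lower in the wild type. Higher and lower calls in the knockout were 2 and 6 after quantile normalization, 1 and 6 after median centring, 2 and 6 with the lowest 60% left out, 1 and 5 without the sex term, 2 and 4 with robust variance, and 1 and 5 with the brightest probe set per gene. The lower call was lost (0) with a pseudocount of 64, no filter, no variance trend, group weights, only the groups compared, and only the 9 knockout arrays. In the wild type, 1 lower call appeared without the trend and with group weights, and 6 higher and 13 lower calls with only the groups compared.

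Chosen after seeing the data, a fit with replicate 3 as the only 8-month knockout array gave 5 higher and 20 lower probe sets, and 7 and 10 for the difference; its lone array is assumed to vary like the other groups. Without replicate 3, quantile normalization gave 1176 and 1459, and only the groups compared gave 767 and 767. The probe set of Nlk that passed kept its direction under all 22 alternatives, between -0.59 and -0.48. It passed under 12 of them, with adjusted p from 0.00052 to 0.556. Ighm fell by 0.86 with replicate 3 as the only 8-month array, the reverse of its value with all arrays, and Snap25 changed by -0.17 without replicate 3 after quantile normalization, against a positive value with all arrays. With replicate 3 alone, 87 of the named probe sets, 0 of which had passed with all arrays, changed sign. No paired analysis was possible because the labels give each array a number of its own, so no replicate numbers tie arrays of different groups together. Probe sets near the background have no reliable change.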
